A study of Mus musculus with 6 samples.

Results

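Trp53, the gene of the tumour suppressor p53, and 9 genes that p53 is known to activate directly were examined in the embryonic mouse forebrain: Mdm2, Trp53inp1, Ccng1, Phlda3, Eda2r, Zmat3, Plk2, Aen and Perp. They were chosen by name, as direct targets outside the BCL2 family, and are 10 of the 33084 genes in the count table. All 10 passed the filter on low counts, which kept 19616 genes. The tissue was forebrain microdissected at embryonic day 15.5 and sequenced as bulk RNA. Mutants carried Dyrk1a<DlxCre/+>, a conditional inactivation of the kinase gene Dyrk1a in the Dlx5 domain, and controls were wild-type (wt), with 3 libraries in each group. The /+ in the mutant label is the notation of a heterozygote, in which a copy of Dyrk1a stays wild-type. Cre acts only where the Dlx driver is active, in the GABAergic lineage of the ventral forebrain, while the libraries hold all forebrain cells, so a difference limited to that lineage would be diluted. The labels do not name the conditional allele or say whether the wt embryos carried Cre or came from the same litters, so p-values measure the spread between these samples, which may be technical.

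p53 is a transcription factor that is made continuously and degraded continuously. Mdm2, itself a p53 target, encodes the ubiquitin ligase that binds p53 and sends it to the proteasome, which closes a negative feedback loop. Damage or other stress releases p53 from Mdm2, and its targets then slow the cell cycle, aid repair, restrain growth signals or promote cell death. In the developing brain, p53 is known for removing neural progenitors with damaged DNA or disturbed division. In cultured rat embryonic neuronal cells, DYRK1A has been reported to phosphorylate p53. Most control of p53 acts on the protein, so the mRNA levels of its targets are the closer view of its activity that RNA counts allow.

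p53 binds DNA as a tetramer at paired copies of a palindromic decamer, called here the p53 decamer. Promoter windows from RefSeq on GRCm38.p6, running from 250 bases before to 50 bases after an annotated start, were at hand for 7 of the 10 genes: Trp53, Mdm2, Ccng1, Phlda3, Eda2r, Plk2 and Aen. An exact match to the p53 decamer, which reads alike on both strands, lay in the window of 4 of the 7, namely Trp53, Mdm2, Ccng1 and Aen. Of all 27025 genes with such windows, 9.55% held a match. The 7 were chosen as p53 and its known targets, so their share is no independent evidence of p53 sites. The 4 matches are shown with 10 bases on either side, since each is the stretch of its window that spells the motif; the decamer is in capitals, 5′ to 3′ on the gene's strand.
Ccng1: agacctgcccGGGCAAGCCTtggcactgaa
Aen: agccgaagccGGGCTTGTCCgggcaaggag
Mdm2: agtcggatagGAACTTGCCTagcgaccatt
Trp53: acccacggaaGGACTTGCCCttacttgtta
The Ccng1 stretch lies on the reverse strand at chr11:40755452-40755481, its decamer beginning 185 bases before the start. The decamer there directly follows another that differs from the motif at 1 position, so that paired copies stand side by side. The Aen stretch (forward strand, chr7:78895927-78895956) begins its decamer 121 bases before one annotated start and just after another, and a decamer with 2 mismatches follows after a spacer of 7 bases. The Mdm2 stretch (reverse strand, chr10:117710925-117710954) lies 186 bases before the start. The Trp53 stretch (forward strand, chr11:69580274-69580303) lies 75 bases before it. Within a spacer of 13 bases the best neighbouring decamer has 4 mismatches at Mdm2 and 3 at Trp53. These matches are a description of the reference sequence, and nothing was measured of p53 binding.

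The 6 libraries held between 24646616 and 38315004 counts. Dyrk1a itself, which the count table cannot split into the deleted part and the rest, had 186, 159 and 182 CPM (counts scaled to a common library size) in mutants, against 169, 183 and 180 CPM in controls. No difference between mutants and controls was detected in any of the 10 genes. With p adjusted by the Benjamini-Hochberg method and a threshold of 0.05, edgeR's quasi-likelihood test called 0 of the 10, and 0 of all 19616 tested genes (0.0%), with an adjusted p = 0.9999 for each of the 10. At an unadjusted p under 0.05 it gave 0 of the 10 and 376 of all genes (1.92%), while DESeq2 and limma-voom also called 0 genes and had 0 of the 10 at an unadjusted p under 0.05, with 261 and 393 of all genes. Leaving out one library moved the count of 376 to 689 (mutant replicate 3), 245 (mutant replicate 2), 1060 (control replicate 3) or 179 (control replicate 1). Without mutant replicate 3, Zmat3 (-0.27, unadjusted p = 0.0399) and Trp53inp1 (-0.29, unadjusted p = 0.0442) were among the 689, each with an adjusted p = 0.974 in edgeR's test. In 0 of the 10 did every mutant library lie on the same side of every control library, against 6.89% of all tested genes. Of the log2 fold changes, mutant over control, 5 lay above 0 and 5 below, between -0.16 and 0.11, with a median of 0.0022 against -0.0079 over all tested genes. The median distance from 0 was 0.05 log2 units over the 10 and 0.09 over all tested genes.

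Per kilobase of exon the 10 genes spanned a wide range of levels in the same order in mutants and controls. Plk2 and Trp53inp1 were the most abundant, with mean levels of 31.1 and 20.7 CPM per kilobase (RPKM) in mutants and 28.8 and 22.4 RPKM in controls. Mdm2 followed at 13.4 RPKM in mutants and 13.6 RPKM in controls, then Ccng1 at 10.8 RPKM in mutants and 10.7 RPKM in controls. Aen averaged 9.23 RPKM in mutants and 9.11 RPKM in controls, and Trp53 itself 8.18 RPKM in mutants and 8.87 RPKM in controls. Zmat3 stood at 4.43 RPKM in mutants and 4.94 RPKM in controls, and Phlda3 at 2.63 RPKM in mutants and 2.55 RPKM in controls. The lowest were Perp, at 1.05 RPKM in mutants and 1.02 RPKM in controls, and Eda2r, at 0.624 RPKM in mutants and 0.630 RPKM in controls. Across all 6 libraries, neighbours in this order had overlapping ranges for Plk2 and Trp53inp1, for Aen and Trp53, and for Perp and Eda2r, and separate ranges for the others.

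**Figure D1:**
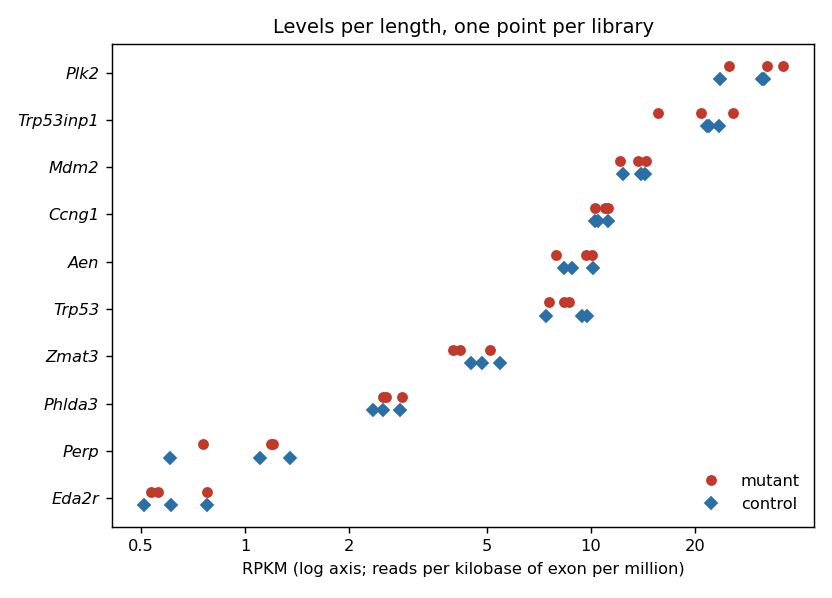
Level of each gene per length in RPKM on a log axis, 1 point per library, mutants as circles above controls as diamonds. Plk2 lies between 23.6 and 35.8 RPKM and Eda2r between 0.509 and 0.776 RPKM, and mutant and control points intermingle in every row.

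Trp53 and its inhibitor Mdm2 overlapped between mutants and controls. Trp53 (ENSMUSG00000059552, GRCm38 chromosome 11, 69580359 to 69591873, forward strand) had 33.8, 35.0 and 30.5 CPM in mutant replicates 1, 2 and 3, against 29.9, 38.2 and 39.4 CPM in control replicates 1, 2 and 3. The controls spanned the whole range of the mutants. The means were 33.1 ± 2.32 CPM in mutants and 35.9 ± 5.17 CPM in controls (SD, n = 3 each). The log2 fold change was -0.12 with a standard error of 0.12, and its 95% interval ran from a change of -24.0% to one of 12.1%. With control replicate 1, the lowest of the controls, left out it was -0.23, and with control replicate 3 left out -0.03. Within replicates 1 and 2 alone mutants differed from controls by 0.02 log2 units, and within replicate 3 by -0.37.

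Mdm2 (ENSMUSG00000020184, chromosome 10, 117688875 to 117710758, reverse strand) had 69.4, 61.8 and 73.4 CPM in mutants, against 62.8, 70.7 and 73.1 CPM in controls. The lowest and the highest of the 6 libraries were both mutants. Its log2 fold change was -0.01 ± 0.10 (SE), with a 95% interval from -15.3% to 15.9%. The Mdm2 relative Mdm4, which blocks transactivation by p53, averaged 262 ± 32.6 CPM in mutants and 281 ± 9.12 CPM in controls (SD, n = 3 each). The log2 fold change of Mdm4 was -0.10 ± 0.10 (SE).

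**Figure D2:**
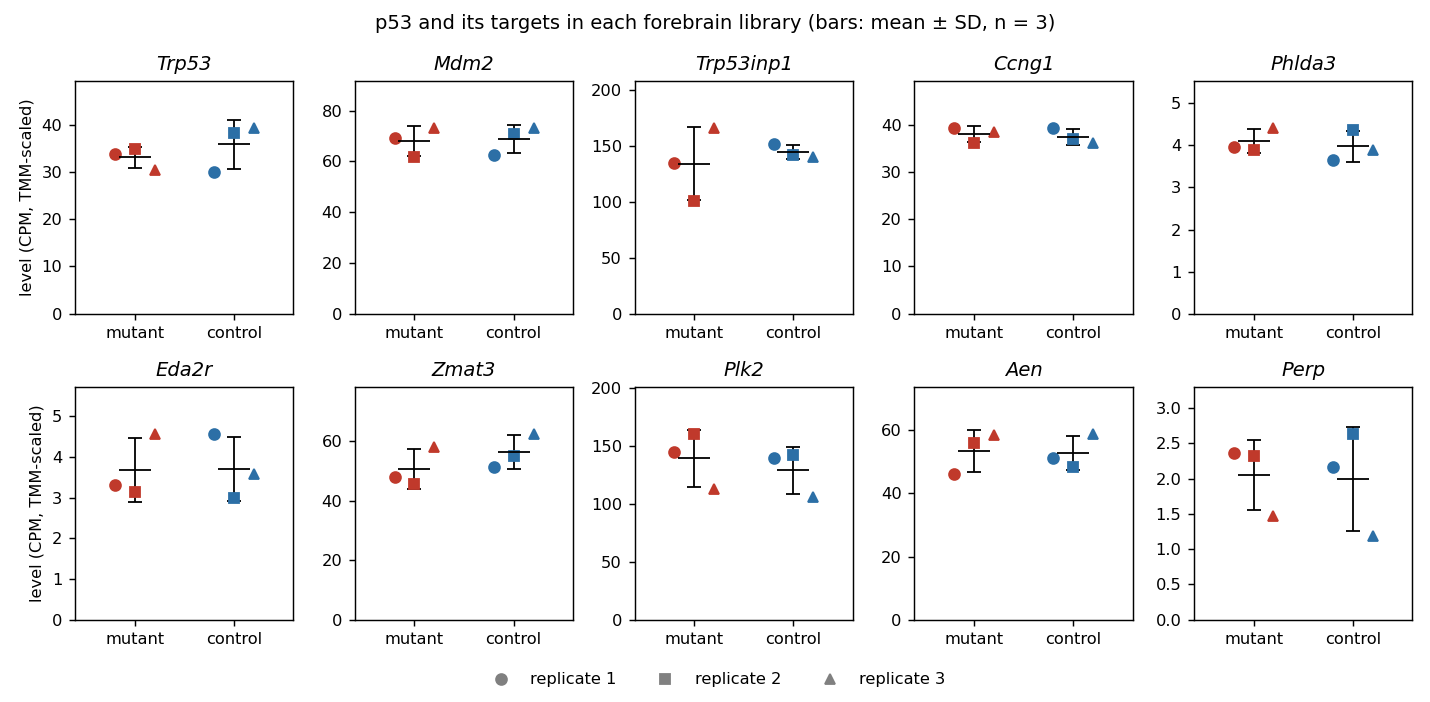
CPM of the 10 genes in each library, mutants left of controls in each panel, symbols giving the replicate number and bars the mean and SD of 3 libraries. In all 10 panels the groups overlap, and for Plk2 and Perp the replicate 3 libraries of both groups are the lowest.

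Among the targets that slow growth or division, Ccng1 was the most even gene of the set. It encodes cyclin G1, which recruits protein phosphatase 2A to Mdm2. It had 39.4, 36.1 and 38.5 CPM in mutants, against 39.4, 36.9 and 36.2 CPM in controls. Its highest library lay 1.09 times above its lowest, and the log2 fold change was 0.02 ± 0.09 (SE), with a 95% interval from -11.7% to 16.3%. Ccng1 lies on chromosome 11 (40748552 to 40755311, reverse strand) and is the gene with paired decamers in its promoter window.

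Plk2 encodes a polo-like kinase that neurons induce on activity and that weakens synapses. It was the most abundant of the 10 per length and had 145, 161 and 113 CPM in mutants, against 140, 142 and 106 CPM in controls. In both groups the replicate 3 library was the low one. Its log2 fold change was 0.11 ± 0.15 (SE), and the 95% interval ran from -15.4% to 37.7%. With control replicate 3 left out it was -0.0066 and with mutant replicate 2 left out -0.0036. The other fits with a library left out gave between 0.09 (mutant replicate 1) and 0.25 (mutant replicate 3). The cause of this range was not tested. Within replicates 1, 2 and 3 the mutant library was above the control library of that number, by 0.05, 0.18 and 0.09 log2 units. The labels do not pair these libraries. With the replicate number as a block the value was 0.11 ± 0.07 (SE; adjusted p = 0.987, edgeR).

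Trp53inp1, whose product is a stress-induced nuclear protein that aids p53 phosphorylation and autophagy, varied most among mutants. It had 135, 101 and 167 CPM in mutants, against 152, 142 and 140 CPM in controls. Mutant replicates 2 and 3 were the lowest and the highest of the 6 libraries, and the controls lay between them. The log2 fold change was -0.11 ± 0.16 (SE), with a 95% interval from -27.9% to 19.1%. With mutant replicate 2 left out it was 0.06, with mutant replicate 3 left out -0.29 and with replicates 1 and 2 alone -0.31 (unadjusted p = 0.0216, adjusted p = 0.604, edgeR), so its sign turned without mutant replicate 2 and its size grew without mutant replicate 3. Its transcript has 38.8% GC, the lowest of the 10, and with each library's trend over GC content and transcript length removed its value was -0.02 ± 0.11 (SE).

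Among Aen, Eda2r and Perp, all targets tied to cell death, Aen was the most abundant. It encodes a nuclease that helps to cut DNA in apoptosis, and it had 46.0, 56.1 and 58.6 CPM in mutants, against 51.1, 48.5 and 58.9 CPM in controls. The groups covered nearly the same range. Its log2 fold change was 0.02 ± 0.12 (SE), with a 95% interval from -16.0% to 22.1%, and between -0.05 and 0.12 when single libraries were left out. Eda2r, on the X chromosome, encodes a receptor of the tumour necrosis factor family that binds the A2 form of ectodysplasin. It had 3.30, 3.15 and 4.57 CPM in mutants, against 4.56, 3.00 and 3.58 CPM in controls, and both groups had 1 high library. Its log2 fold change was -0.02 ± 0.22 (SE), with a 95% interval from -30.1% to 39.2%. With control replicate 1 left out it was 0.15, and with mutant replicate 3 left out -0.21.

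Perp encodes a membrane protein of the PMP22 family that serves p53-dependent death and, in epithelia, desmosomes. It was the least counted of the 10, with 67, 59 and 40 reads in mutants and 72, 65 and 45 reads in controls. These gave 2.35, 2.32 and 1.48 CPM in mutants, against 2.16, 2.63 and 1.19 CPM in controls. The replicate 3 libraries of both groups were the low ones, and mutants and controls overlapped. The log2 fold change was 0.06 ± 0.32 (SE), and the 95% interval, from -36.7% to 72.3%, was the widest of the 10. The value turned negative with control replicate 3 (-0.21), mutant replicate 1 (-0.05) or mutant replicate 2 (-0.03) left out and was 0.30 with control replicate 2 left out. Surface epithelium was barely represented: Krt5, Krt14, Pkp1 and Trp63 did not pass the count filter, and the 4 other markers of that list summed to between 7.56 and 9.53 CPM in mutants and between 8.998 and 10.3 CPM in controls. Those 4 did not run together: the desmosome gene Dsp had 4.32, 3.94 and 4.20 CPM in mutants, against 6.86, 5.88 and 6.83 CPM in controls, and the keratin gene Krt18 had 2.07, 3.11 and 1.475 CPM in mutants, against 1.53, 1.135 and 1.32 CPM in controls. The log2 fold change of Dsp was -0.65 ± 0.14 (SE; unadjusted p = 0.00154, the smallest of all tested genes in that fit, adjusted p = 0.9999, edgeR) and that of Krt18 was 0.73 ± 0.29 (SE; unadjusted p = 0.0343, adjusted p = 0.9999, edgeR). Their part in the values of Perp was not tested.

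The products of Phlda3 and Zmat3 act at membrane lipids and on RNA, respectively. Phlda3, whose product competes with the growth kinase AKT for membrane lipids, had 3.97, 3.90 and 4.43 CPM in mutants, against 3.66, 4.38 and 3.90 CPM in controls. The groups overlapped almost fully, with a log2 fold change of 0.05 ± 0.16 (SE) and a 95% interval from -19.1% to 31.9%. With the GC and length trends removed the value was -0.17 ± 0.16 (SE), and its transcript, at 62.6% GC, is the richest in GC of the 10.

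Zmat3 encodes a zinc finger protein that binds RNA and alters splicing and stability of its targets, and it had the smallest p of the 10. It had 47.9, 45.7 and 58.2 CPM in mutants, against 51.5, 55.2 and 62.6 CPM in controls. In each of the 3 replicate numbers the mutant library was below the control library of that number, with differences of -0.10, -0.27 and -0.10 log2 units. Replicate 3 was the highest library of each group. The groups overlapped, as mutant replicate 3 lay above control replicates 1 and 2. Among the 10 genes, only Zmat3 and Plk2 kept the same sign over the 3 numbers. The labels do not pair these libraries, and the share of all tested genes that kept the same sign was not counted. The log2 fold change of Zmat3 was -0.16 ± 0.12 (SE; unadjusted p = 0.220, edgeR), with a 95% interval from -25.6% to 8.14%. With a term for the replicate 3 libraries it was -0.16 ± 0.07 (unadjusted p = 0.0498, adjusted p = 0.969, edgeR), and over all fits it lay between -0.27 and -0.07. No fit put it past the adjusted threshold.

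**Figure D3:**
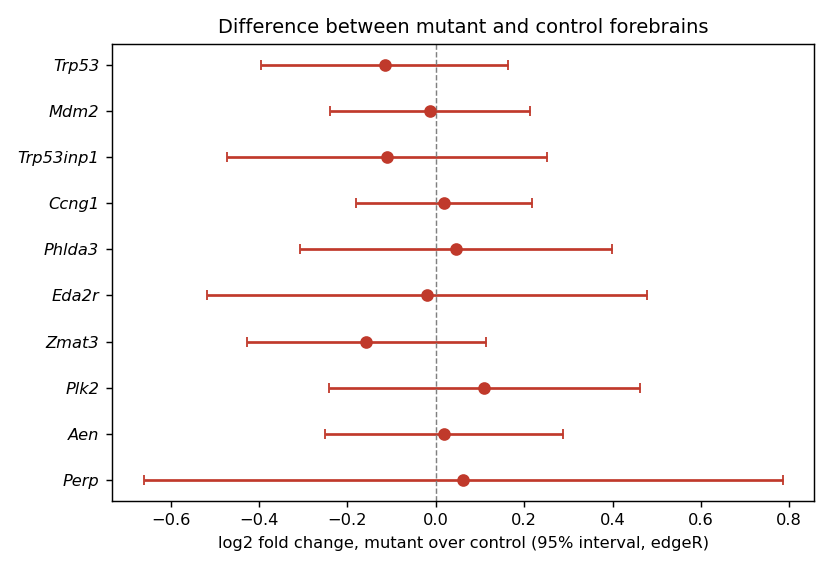
Log2 fold change, mutant over control, of the 10 genes with 95% intervals from edgeR's fit of all 6 libraries. All 10 intervals include 0, from Ccng1 with the narrowest to Perp with the widest.

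A pattern that both groups shared followed the replicate number. The replicate 3 libraries of both groups stood apart from the other 4 along the first principal component, which held 37.4% of the variance. In 5 of the 10 genes the replicate 3 library lay outside replicates 1 and 2 on the same side in both groups, a share close to the 42.3% of all tested genes. It was above them in 3 of the 10, against 21.4% of all tested genes, and below them in 2 of the 10, against 20.9%. Plk2 was lower in replicate 3, with a difference of -0.44 log2 CPM in mutants and -0.41 in controls, as was Perp with -0.64 in mutants and -0.97 in controls. Zmat3 was higher there by 0.31 in mutants and 0.23 in controls, Aen by 0.20 in mutants and 0.24 in controls and Mdm2 by 0.16 in mutants and 0.13 in controls. The remaining genes differed in sign between the groups. Trp53 was at -0.17 in mutants and 0.22 in controls, and Ccng1 at 0.03 in mutants and -0.08 in controls. Trp53inp1 was at 0.51 in mutants and -0.07 in controls. Eda2r was at 0.49 in mutants and -0.04 in controls, and Phlda3 at 0.17 in mutants and -0.04 in controls. With 1 library of that number per group these differences were not tested.

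Cell type markers moved with the same libraries. The 10 proliferation markers summed to 1824 CPM in mutant replicate 3 and 1741 CPM in control replicate 3, against 1003 to 1111 CPM in the other 4 libraries, and each of the 10 was higher in replicate 3 of both groups. The 8 neuron markers summed to 5197 CPM in mutant replicate 3 and 5123 CPM in control replicate 3, against 5679 to 6078 CPM in the others. Of the 8, 6 were lower in replicate 3 of both groups, while Dcx and Rbfox3 were not. Summed markers of radial glia were above the other 4 libraries in replicate 3 of both groups. Of the 8, 5 were higher in replicate 3 of both groups and 1, Slc1a3, was lower. Summed markers of oligodendrocyte precursors, microglia, choroid plexus and meninges were below the other 4 libraries there. Single markers were less uniform. Those lower in replicate 3 of both groups were 4 of 5, 3 of 6, 3 of 6 and 3 of 6, in that order. Otx2 of choroid plexus and Lum of meninges were higher there. Ttr carried most of the choroid plexus sum and Col1a2 most of the meninges sum. The 6 markers of primitive red cells summed to 404 CPM in mutant replicate 3 and 396 CPM in control replicate 3, against 109 to 132 CPM in the others. The globin gene Hbb-y carried most of that sum, with 322 CPM in mutant replicate 3 and 321 CPM in control replicate 3, against 27.8 to 42.5 CPM in the others. Of the 6, 4 were higher in replicate 3 of both groups, and the other two, Hba-a1 and Alas2, were lower. The part of these shifts in the values of Plk2, Perp, Zmat3, Aen and Mdm2 was not tested. In bulk tissue, fewer cells of a type and less RNA per cell cannot be told apart. The 8 markers of the GABAergic lineage, in which Cre acts, were all detected and summed to between 414 and 424 CPM in mutants and between 364 and 447 CPM in controls.

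**Figure D4:**
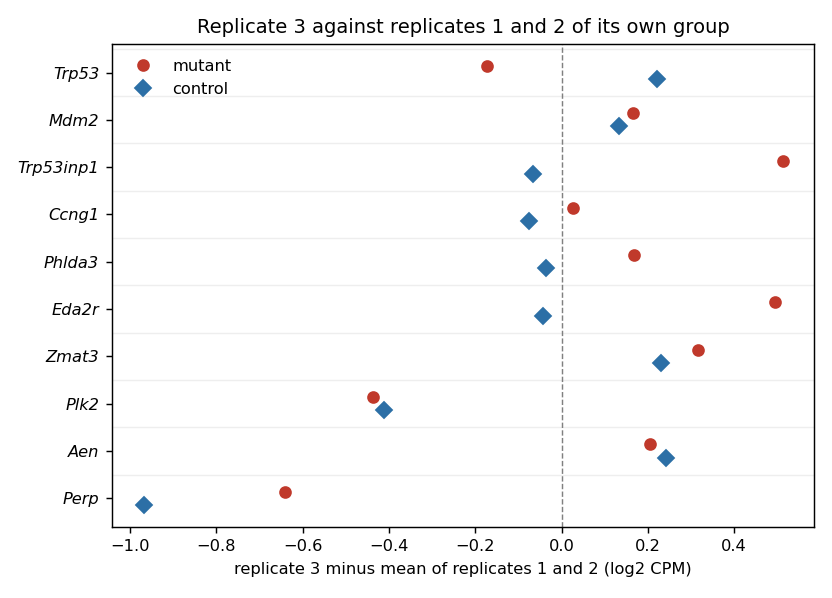
Difference in log2 CPM between replicate 3 and the mean of replicates 1 and 2 of its own group, mutants as circles above controls as diamonds. Plk2 and Perp are low and Mdm2, Zmat3 and Aen high in replicate 3 of both groups. Trp53inp1, at 0.51 in mutants and -0.07 in controls, differs in sign between the groups, as do Trp53, Ccng1, Phlda3 and Eda2r.

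Beyond the 10 genes, 40 further p53 targets were listed, of which 38 were tested, with Fas and Lif under the count filter. None passed the adjusted threshold in edgeR's test, and 0 of the 38 had an unadjusted p under 0.05. In 23 of them the log2 fold change was positive and in 15 negative, and its median was 0.03 against -0.0079 over all tested genes. Cdkn1a, the cyclin-dependent kinase inhibitor p21 and the classical p53 target of cell cycle arrest, was scarce. It had 3.09, 3.62 and 3.36 CPM in mutants, against 3.54, 4.78 and 2.66 CPM in controls, and the mutants lay inside the range of the controls. Its log2 fold change was -0.11 ± 0.23 (SE), with a 95% interval from -35.2% to 32.0%.

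The death genes among these targets lay on both sides of 0, none past the threshold. Bbc3, which encodes the BH3-only protein PUMA, had 6.43, 9.02 and 6.20 CPM in mutants, against 5.57, 6.61 and 4.82 CPM in controls, a log2 fold change of 0.35 ± 0.19 (SE; unadjusted p = 0.104, edgeR). Pmaip1, which encodes its relative NOXA, had 1.16, 0.709 and 1.07 CPM in mutants, against 1.17, 1.99 and 1.19 CPM in controls, at -0.53 ± 0.31 (SE; unadjusted p = 0.116, edgeR). Tnfrsf10b, the gene of the mouse TRAIL death receptor, had 9.28, 8.19 and 8.81 CPM in mutants, against 11.6, 10.9 and 9.33 CPM in controls, at -0.27 ± 0.13 (SE; unadjusted p = 0.0757, edgeR). The mutant libraries lay below the control libraries in Pmaip1, Tnfrsf10b and the membrane protein gene Ei24, or 3 of the 38, and above them in 0 of the 38, against 3.7% and 3.19% of all tested genes. For Pmaip1 the nearest libraries were 1.16 CPM in mutants and 1.17 CPM in controls.

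The remaining genes with the smallest p on each side also missed the threshold. Above 0 these were the phospholipid transfer protein gene Pltp at 0.19 ± 0.15 (log2, SE), the ferredoxin reductase gene Fdxr at 0.15 ± 0.14 and the heparan sulfatase gene Sulf2 at 0.09 ± 0.10. Below 0 they were Sesn2, a stress-induced inhibitor of growth signalling, at -0.19 ± 0.17 and the low-count phosphatase gene Ptprv at -0.62 ± 0.53. Pltp, Sulf2 and Ptprv share exon bases with genes on the opposite strand (Ctsa, Ncoa3 and Gm10535), and whether reads were counted by strand is not stated.

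The enzymes and cofactors that control p53 gave no call either. Of 25 listed regulators 23 were tested, 10 with a positive and 13 with a negative log2 fold change (median -0.02), and 0 passed the adjusted or the unadjusted threshold in edgeR's test. Cdkn2a was under the count filter, while Setd8 was not found under that symbol, which says nothing of its level. Ppm1d, a p53-induced phosphatase that switches the damage response off, had 37.4, 37.99 and 40.2 CPM in mutants, against 35.8, 33.2 and 36.7 CPM in controls. Its groups did not overlap, 1 of the 23 against 6.89% of all tested genes, a share near that background, and its log2 fold change was 0.13 ± 0.09 (SE; unadjusted p = 0.181, edgeR). The ribosomal protein gene Rpl5, whose product binds Mdm2, was at 0.14 ± 0.11, the acetyltransferase gene Kat5 at 0.12 ± 0.10 and the Mdm2 cofactor gene Daxx at 0.12 ± 0.11 (log2, SE). On the lower side stood Ppp1r13l, the gene of the p53 inhibitor iASPP, at -0.28 ± 0.25, the ubiquitin ligase gene Huwe1 at -0.08 ± 0.08 and the acetyltransferase gene Ep300 at -0.09 ± 0.09. Rpl5 and Kat5 share exon bases with Fam69a and Rnaseh2c on the opposite strand.

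Of the p53 family, Trp73, which marks Cajal-Retzius neurons, was tested and had 12.9, 14.02 and 13.7 CPM in mutants, against 12.1, 13.5 and 15.5 CPM in controls (log2 fold change -0.01 ± 0.13, SE). The mutants lay inside the range of the controls. Trp63, an epithelial gene, had between 1 and 8 reads per library. Named relatives of the 10 genes also missed the threshold: Ccng2 at -0.10 ± 0.09 (log2, SE), Trp53inp2 at -0.05 ± 0.10, Zmat4 at -0.05 ± 0.18, Plk4 at 0.08 ± 0.20, Plk5 at 0.27 ± 0.47 and Isg20 at 0.30 ± 0.33. Phlda1, a relative of Phlda3, had 2.07, 2.56 and 2.32 CPM in mutants, against 1.498, 1.91 and 1.95 CPM in controls, and was the 1 of 12 tested relatives whose groups did not overlap, again against 6.89% of all tested genes. Its log2 fold change was 0.38 ± 0.20 (SE; unadjusted p = 0.0914, edgeR), and its exons overlap Gm28592 on the opposite strand. None of the 12 passed the threshold.

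**Figure D5:**
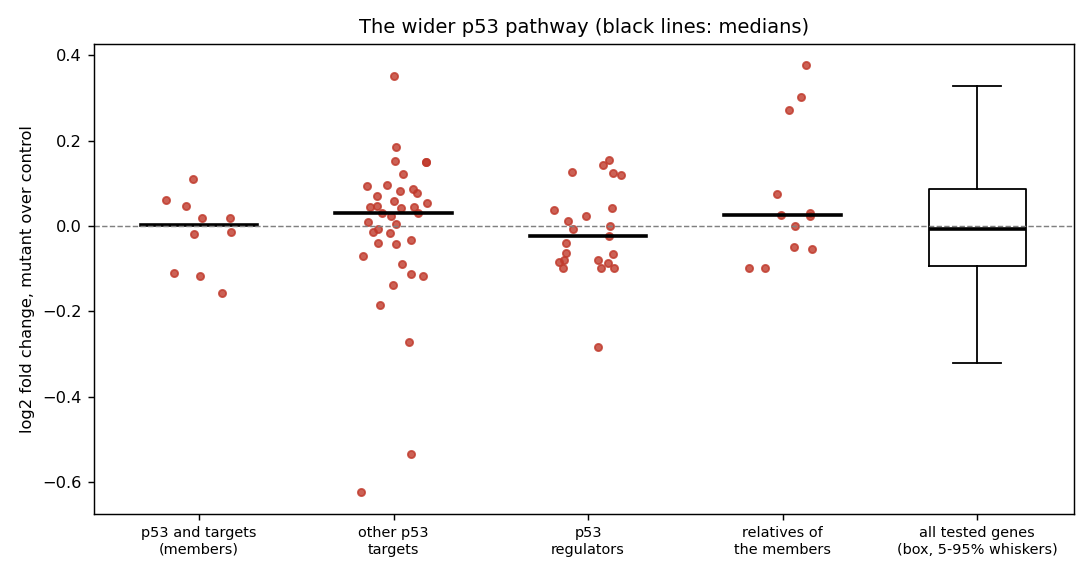
Log2 fold change, mutant over control, of the 10 genes, the 38 further targets, the 23 regulators and the 12 relatives, 1 point per gene with the median as a black line, beside a box of all 19616 tested genes with whiskers at the percentiles named on the axis. The medians are 0.0022, 0.0298, -0.0228 and 0.0259, against -0.0079 over all tested genes.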

How the data were processed

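RNA of 6 forebrain libraries was sequenced single-end from a stranded TruSeq Total RNA kit with ribosomal RNA depletion, per the labels' protocols. The submitters' processing notes and the design text name bcl2fastq 2.17.1.14, HISAT2 on GRCm38 release 93, SAMtools 1.9 and HTSeq 0.9.1. Whether reads were counted by strand is not stated there. The authors deposited unnormalized whole-number counts, with 1 column for each library. GENCODE M21 (GRCm38) gave symbols for 32888 of 33084 identifiers, positions, exon lengths and overlaps. None of the 10 genes overlaps another annotated gene.

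Genes were kept with edgeR's filterByExpr (count minimum 10, minimum total 15), scaled by TMM and tested with edgeR 4.0.16's robust quasi-likelihood test, mutant over control, with no covariate, in R 4.3.3. Benjamini-Hochberg adjustment ran over all 19616 genes, with a threshold of 0.05. Log2 CPM used a prior count of 2. RPKM is CPM per kilobase of the union of exons. Standard errors are the fold change divided by the square root of F. The fit was tested on simulated data. Figures were drawn with matplotlib 3.10.9. Alternatives were DESeq2 1.42.0 and its size factors, library totals, no filter, limma-voom 3.58.1 with and without sample weights, each library left out, the replicate number as a block, a replicate 3 term, replicates 1 and 2 alone, and offsets for GC content and transcript length.

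Same-numbered libraries of the groups deviated together from their group means (correlations of 0.34, 0.11 and 0.47 over genes above 1 CPM for replicates 1, 2 and 3), so the numbers were treated as pairing the samples in the block. Mutant replicate 1 correlated more with control replicate 2 (0.49) than with control replicate 1. The pairing rests on this correlation and not on the labels. Deviations were taken from each group's own mean, so replicate 3 standing apart in both groups also moves replicates 1 and 2 alike in both. These correlations therefore cannot show that the numbers pair the samples. Text names all 10 genes, up to 4 genes per direction with the smallest p in each further list, Cdkn1a, Mdm4, Ccng2 and Trp63, and for Trp53 and Mdm2 the 3 genes most like them. Ei24, Dsp, Krt18, Hbb-y, Hba-a1 and Alas2 were added after their values were seen, as was the search for p53 decamers. The genes and lists were chosen with earlier results of these data known.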

Additional observations from a re-analysis of the deposited data

How the results depend on the processing

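None of the 10 genes was called in any of the 18 fits, the main one included. Over all genes each fit tested, 0 were called except with replicates 1 and 2 alone, where 3 of 19652 were called, Hist1h2ag, Pisd-ps1 and Tmem181b-ps, none of them a p53 gene. The replicate block changed no call: the log2 fold changes stayed between -0.16 for Zmat3 and 0.11 for Plk2, with 765 genes at an unadjusted p under 0.05 against 376 without it. That count was 1909 with sample weights in limma-voom and from 179 to 1060 when single libraries were left out. Some signs turned, all of values not past the threshold. With sample weights in limma-voom, Trp53 was at 0.063, Mdm2 at 0.060, Ccng1 at -0.0044 and Aen at -0.042. With replicates 1 and 2 alone, Trp53 was at 0.021, Ccng1 at -0.011, Phlda3 at -0.018 and Perp at -0.021. With the GC and length trends removed, Mdm2 was at 0.0010, Phlda3 at -0.17 and Eda2r at 0.0445, and with the block added they were at 0.0029, -0.17 and 0.0457. Leaving out each library in turn gave -0.23 to -0.03 for Trp53, -0.077 to 0.052 for Mdm2, -0.29 to 0.0575 for Trp53inp1, -0.0026 to 0.056 for Ccng1, -0.011 to 0.12 for Phlda3, -0.21 to 0.15 for Eda2r, -0.27 to -0.07 for Zmat3, -0.0066 to 0.25 for Plk2, -0.048 to 0.12 for Aen and -0.21 to 0.30 for Perp. The median over the 10 genes ran from -0.0525 to 0.024, that of the further targets from -0.0041 to 0.063 and that of the regulators from -0.05 to 0.0035. The cause of these shifts was not tested. Perp, Eda2r and Phlda3 had the fewest reads of the 10, at 40 to 152 per library, with standard errors of 0.32, 0.22 and 0.16, while Plk2, with 3061 to 4674 reads, had one of 0.15, so how far depth limits the Phlda3 value was not tested.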

Other observations

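Some genes followed the level of Trp53 or Mdm2 closely over the 6 libraries, ranked by Pearson's r of log2 CPM among 12762 genes of at least 5 CPM. With so many genes and so few libraries, values near 1 arise readily, so these are a description of the profiles. For Trp53 they were Agbl5, a tubulin deglutamylase gene (r = 0.974), the transcription factor gene Bhlhe40 (r = 0.970) and Gm4258 (r = 0.965). Agbl5 had 66.2, 68.0 and 63.2 CPM in mutants, against 63.6, 68.4 and 70.3 CPM in controls, so it shared with Trp53 a low control replicate 1 and a low mutant replicate 3. For Mdm2 they were Gm29055 (r = 0.993), the ribosome assembly gene Brix1 (r = 0.985) and the ubiquitin ligase gene Peli2 (r = 0.981). Brix1 had 22.9, 19.7 and 23.6 CPM in mutants, against 19.5, 23.02 and 24.3 CPM in controls. Mutant replicate 2 and control replicate 1 were low in both Mdm2 and Brix1.

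The p53 decamer lay in the promoter window of 8 of the 30 further p53 targets that had one (26.7%) and of 2 of 24 regulators (8.33%), against 9.55% of all genes with a window. The further targets were likewise listed because they are known p53 targets.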
